A study of Mus musculus with 6 samples.

Results

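Binding of GATA4 and GATA6 was described at 10 mouse genes of the basement membrane: Lama1, Lama5, Lamb1, Lamb2 and Lamc1, which encode laminin chains, Nid1 and Nid2, which encode nidogens, and Hspg2, Sparc and Agrn, which encode perlecan, SPARC and agrin. The genes were chosen by symbol and by function, with earlier results of these data known. They are 10 of 21938 protein-coding genes in the annotation. Regions called in the gene body or within 50 kb of any transcription start site (TSS) of a gene were counted as regions in its window. The data come from CUT&RUN, in which an antibody leads a nuclease to its target on the chromatin and the DNA cut free around it is sequenced. It was applied to XEN cells, a stem cell line of the extra-embryonic endoderm, to find where the 2 transcription factors sit in the starting cells of a reprogramming study. There were 3 libraries with an antibody to GATA4 and 3 with an antibody to GATA6, all labelled as the 3F2 line. The 3F lines carry 3 engineered alleles in every library of both factors: an Oct4-GFP reporter, the M2rtTA transactivator at R26, and at Col1a1 the TetO-OKSmCh cassette, which doxycycline turns on to make Oct4, Klf4, Sox2 and mCherry. The labels name no doxycycline treatment. The study's methods text names the 3F6 line beside 3F2 and fewer replicates, and nothing in the labels says that the 3 libraries came from separate cultures, so each SD below measures the spread between libraries. The files hold no expression data, so the cell type could not be checked against marker genes.

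Each library had its own list of 42446 to 49597 called regions, with a total and a maximum signal for each region. The number of reads behind each list is unknown. Signal is not scaled for depth, so it was used only as a percentile within a list, where 100 is the strongest region of that library. A combined list for each factor held the regions present in all 3 of its libraries, 8282 for GATA4 and 5170 for GATA6. All positions are in mm10.

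Basement membranes are thin sheets of extracellular matrix under epithelia. Laminins are trimers of one alpha, one beta and one gamma chain that polymerise at the cell surface, nidogens and perlecan link the laminin network to type IV collagen, agrin ties laminin to cell surface receptors, and SPARC is a secreted glycoprotein that binds collagen. Parietal endoderm, a descendant of the primitive endoderm that XEN cells resemble, lays down the thick Reichert's membrane of the rodent embryo. Its main laminin is made of the chains of Lama1, Lamb1 and Lamc1. GATA factors bind short sequences built on GATA, and in this text a GATA motif is either AGATAA or AGATAG, or else TGATAA or TGATAG, on either strand.

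The genes of the 3 endodermal laminin chains and Sparc carried most of the combined regions by number. They held 28 of the 38 GATA4 combined regions and 22 of the 24 GATA6 combined regions in the windows of the 10 genes. These counts were not divided by window length, and they do not set these genes apart from Nid2. Per length, Nid2 had more called regions than Lama1 on average, though the libraries of the 2 genes overlapped. The means were 69.3 ± 16.3 and 54.2 ± 14.9 per Mb for GATA4, and 73.6 ± 35.8 and 46.5 ± 0 for GATA6 (SD, n = 3). The GATA6 combined count of Nid2 was 1, and 7 without replicate 2. The 6 stretches of 200 bp that follow were selected to hold a GATA motif. Each is centred on the point of maximum signal of the highest-ranked GATA4 combined region of its gene that lies outside exons and holds a GATA motif. They are printed on the plus strand of GRCm38, in lower case with each GATA motif in capitals, so that a motif on the minus strand reads as TTATCT or CTATCT, or else as TTATCA or CTATCA.
Lamb1, chr12:31229377-31229576, intergenic, 34996 bp upstream of the nearest Lamb1 TSS: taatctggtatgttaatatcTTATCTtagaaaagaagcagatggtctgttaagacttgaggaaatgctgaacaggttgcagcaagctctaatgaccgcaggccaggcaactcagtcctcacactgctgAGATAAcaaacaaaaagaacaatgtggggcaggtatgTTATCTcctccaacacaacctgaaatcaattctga
Lamc1, chr1:153376854-153377053, intergenic, 43517 bp upstream: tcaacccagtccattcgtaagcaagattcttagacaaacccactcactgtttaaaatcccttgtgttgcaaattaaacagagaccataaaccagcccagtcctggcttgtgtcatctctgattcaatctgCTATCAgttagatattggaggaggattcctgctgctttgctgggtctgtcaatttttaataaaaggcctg
Sparc, chr11:55428858-55429057, intergenic, 4724 bp upstream: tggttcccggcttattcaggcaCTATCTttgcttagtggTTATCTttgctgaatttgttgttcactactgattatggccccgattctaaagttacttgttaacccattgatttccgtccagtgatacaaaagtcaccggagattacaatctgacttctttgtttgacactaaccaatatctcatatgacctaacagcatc
Lama1, chr17:67654174-67654373, intergenic, 42548 bp upstream: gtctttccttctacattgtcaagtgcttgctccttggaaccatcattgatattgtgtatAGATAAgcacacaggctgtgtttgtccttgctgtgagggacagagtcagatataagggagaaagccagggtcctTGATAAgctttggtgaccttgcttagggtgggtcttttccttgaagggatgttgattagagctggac
Nid2, chr14:19759857-19760056, intron 2 of Nid2: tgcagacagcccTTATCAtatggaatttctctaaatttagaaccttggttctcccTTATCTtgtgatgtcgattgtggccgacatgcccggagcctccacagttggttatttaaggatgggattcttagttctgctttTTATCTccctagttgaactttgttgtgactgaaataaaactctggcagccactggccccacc
Hspg2, chr4:137470248-137470447, intron 1 of Hspg2: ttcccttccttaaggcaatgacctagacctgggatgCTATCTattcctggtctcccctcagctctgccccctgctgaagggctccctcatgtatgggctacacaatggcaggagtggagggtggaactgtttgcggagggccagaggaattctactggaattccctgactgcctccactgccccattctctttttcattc
The Lamb1 and Nid2 stretches hold 3 motifs each, those of Sparc and Lama1 hold 2, and those of Lamc1 and Hspg2 hold 1. The GATA4 combined regions of Lama5 and Lamb2 held none within the 200 bp, so no stretch is shown for these genes.

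Regions were dense around these genes as a group. In the 10 windows together, GATA4 replicates 1 to 3 gave 105, 88 and 87 called regions (93.3 ± 10.1, SD, n = 3). GATA6 replicates 1 to 3 gave 81, 73 and 93 (82.3 ± 10.1, SD, n = 3). The ranges of the 2 factors overlapped, and their means differed by 11 regions (two-sided exact permutation test, p = 0.3, where 3 against 3 libraries cannot go below 0.1). These regions made up 0.193 ± 0.0165% of a GATA4 list and 0.185 ± 0.0206% of a GATA6 list (SD, n = 3, two-sided exact permutation test, p = 0.5). The windows cover 1.61 Mb, so each library held 45.3 to 65.1 regions per Mb there, beside 15.6 to 18.2 per Mb over the genome and 19.5 to 23.3 per Mb over the windows of all protein-coding genes. Combined regions stood at 23.6 per Mb for GATA4 and 14.9 per Mb for GATA6, beside 4.70 and 2.96 per Mb in the windows of all protein-coding genes.

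The density was uneven among the 10 genes. A GATA4 combined region lay in the window of 8 of them, where 48.2% of all protein-coding genes have one, and a GATA6 combined region in the window of 6, where 38.3% do. Within 1 kb of a TSS, 5 of the 10 genes had a GATA4 combined region (19.8% of all genes) and 4 had a GATA6 combined region (13.8% of all genes). The median gene of the 10 had 3.5 GATA4 and 1 GATA6 combined regions, and the median of all protein-coding genes was 0 for both. Windows of the 10 genes are longer than most, with a median of 156 kb against 104 kb. Nid1 and Agrn had no combined region of either factor.

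Per length, the order of the genes by called regions was led by Lamc1 for both factors. For GATA4 the means ran from 123 ± 34.4 regions per Mb at Lamc1 through Lamb1 (103 ± 25.5), Sparc (75.5 ± 12.4) and Nid2 (69.3 ± 16.3) to Agrn (13 ± 4.50) and Nid1 (9.74 ± 8.92, all SD, n = 3). In this order no gene's libraries were clear of those of the next gene down. For GATA6, Lamc1 (131 ± 11.3 per Mb) was clear of Nid2 (73.6 ± 35.8), Lamb1 (65.3 ± 9.65) was clear of Lama1 (46.5 ± 0), and Hspg2 (18.3 ± 5.76) was clear of Nid1 (5.84 ± 5.84, all SD, n = 3). The other neighbours overlapped. Combined regions per length gave another order. For GATA4 it was led by Lamb1 (56.9 per Mb) and Sparc (56.6) ahead of Lamc1 (34.4), and for GATA6 by Sparc (40.4) and Lamb1 (37.9) ahead of Lamc1 (34.4). Of the 80 merged regions at Lamc1, 52 were called in 1 library.

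**Figure D1:**
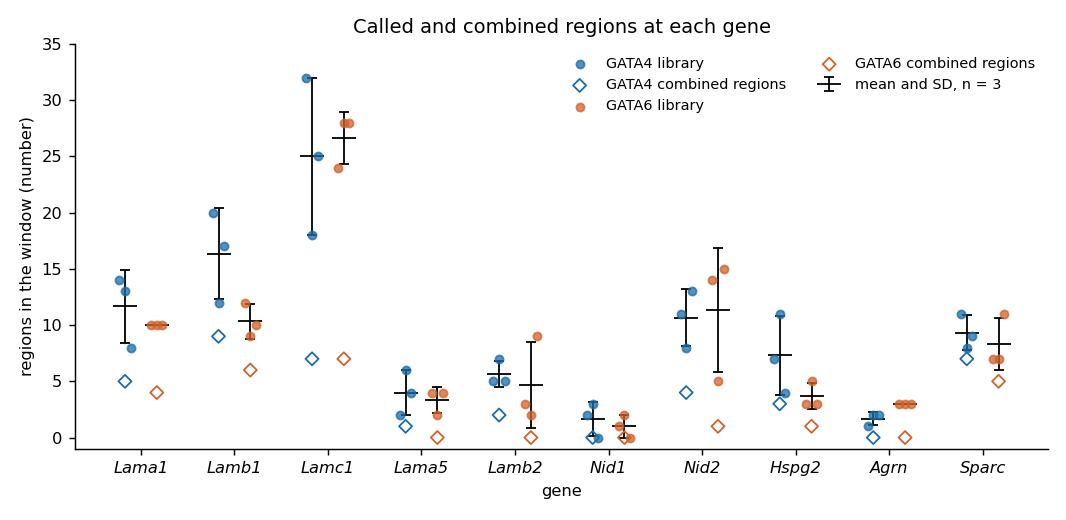
Number of regions in the window of each gene (y axis) for each of the 10 genes (x axis). Filled points are the 3 libraries of each factor, black bars the mean and SD over them, and open diamonds the regions of the combined list. Lamc1 holds 18 to 32 called regions in every library, and Nid1 and Agrn hold 0 to 3.

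**Figure D2:**
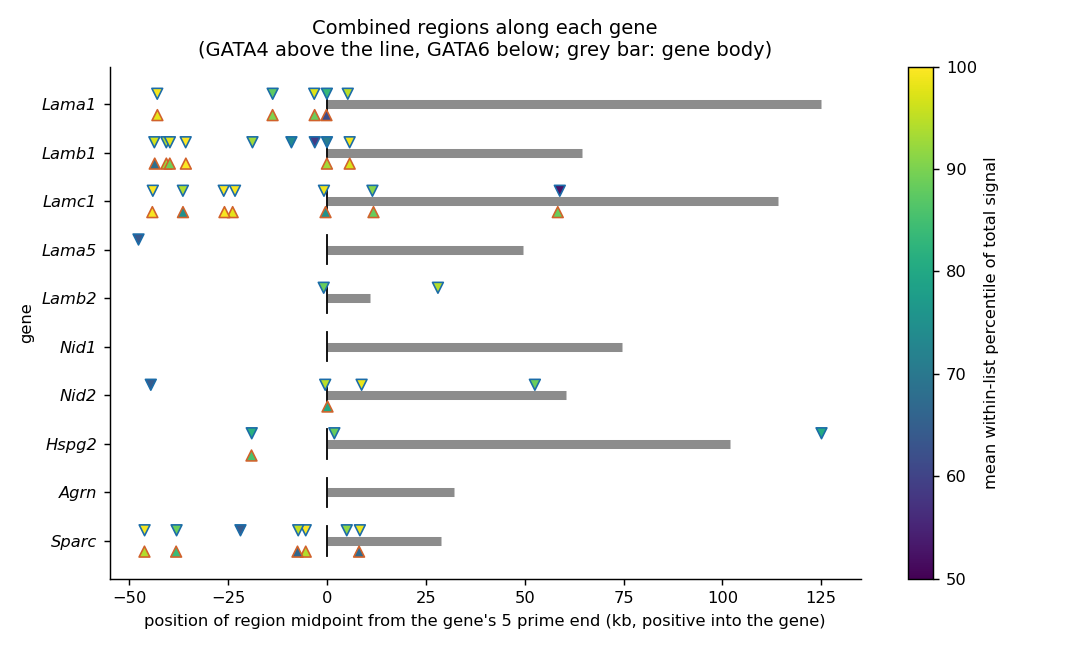
Combined regions by the distance of their midpoint from the 5′ end of each gene (x axis, kb, positive into the gene). GATA4 regions are drawn above and GATA6 regions below each line, and the fill gives the mean within-list percentile of total signal. Regions of both factors stack at the same positions upstream of Lama1, Lamb1, Lamc1 and Sparc, and the gene bodies of Lama5, Lamb2, Nid1 and Agrn hold none.

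Lama1 (ENSMUSG00000032796.8, chr17:67697259-67822647, plus strand) encodes the laminin alpha 1 chain. It had 14, 13 and 8 called regions in the GATA4 libraries and 10, 10 and 10 in the GATA6 libraries. Replicate 3 of GATA4 was the lowest of the 6, and the 2 factors overlapped (11.7 ± 3.21 and 10 ± 0, SD, n = 3, two-sided exact permutation test, p = 0.4, adjusted p = 1). There were 5 GATA4 and 4 GATA6 combined regions, and 3.28% of all genes have at least as many for GATA4. The window of Lama1, 215 kb, is longer than most, and 10.9% of all genes have at least its 23.2 GATA4 combined regions per Mb. The strongest for both factors lay far upstream, at chr17:67653855-67654711 for GATA4, with percentiles of 99.0, 99.4 and 99.0 in replicates 1 to 3. The TSS nearest to it, 21132 bp away, is that of Lrrc30 and not that of Lama1. The GATA6 counterpart of this region, 42478 bp upstream of the Lama1 TSS, had percentiles of 98.4, 98.1 and 98.1. All 6 libraries ranked this region in the upper 2% of their lists. A nearer region, 2872 bp upstream, had GATA4 percentiles of 99.4, 97.3 and 95.7 and GATA6 percentiles of 93.1, 95.8 and 77.0. The region over the TSS itself was lower, with GATA4 percentiles of 71.8, 92.4 and 85.8 and GATA6 percentiles of 78.4, 76.3 and 30.9. A region in intron 1, 4540 bp downstream of a TSS, was in the GATA4 combined list alone (percentiles 91.3, 96.0 and 97.1) and was called in GATA6 replicates 1 and 3.

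Lamb1 (ENSMUSG00000002900.16, chr12:31265234-31329644, plus strand) encodes the laminin beta 1 chain and had the most GATA4 combined regions of the 10 genes, 9, a number reached by 0.342% of all genes. Per length it had 56.9 GATA4 combined regions per Mb, reached by 1.08% of all genes. The GATA4 libraries called 20, 12 and 17 regions there and the GATA6 libraries 12, 9 and 10. The lowest GATA4 library equalled the highest GATA6 library (16.3 ± 4.04 and 10.3 ± 1.53, SD, n = 3, two-sided exact permutation test, p = 0.2, adjusted p = 1). The region printed above, 34996 bp upstream, held percentiles of 99.9, 99.9 and 99.9 for GATA4 and 99.9, 99.8 and 99.3 for GATA6. No other region of the 10 genes had a higher mean percentile for either factor. It is 1571 bp wide in the GATA4 list. Its nearest TSS, 10532 bp away, is that of the predicted gene Gm6993 and not that of Lamb1. Counting only regions whose nearest TSS was the gene's own, Lamb1 had 4 GATA4 and 2 GATA6 regions, and Lamc1 had 7 of each. Intron 3 of Lamb1, chr12:31270415-31271465 in the GATA4 list, was the strongest place inside the gene, with percentiles of 99.6, 99.3 and 98.0 for GATA4 and 99.5, 91.8 and 99.6 for GATA6. The libraries spread at the TSS. GATA4 percentiles were 33.4, 90.0 and 89.0 and GATA6 percentiles 95.1, 99.0 and 84.8, so GATA4 replicate 1 was low and the other 5 libraries were high.

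The Lamb1 promoter was read from RefSeq (GRCm38) for its 191 bp outside exons, since its start site lies in a combined region of both factors. It runs from chr12:31265043 to chr12:31265233 on the plus strand and holds no GATA motif, where 26.5% of 32851 RefSeq promoters hold one in their 250 upstream bases. That share refers to a longer stretch than the 191 bp read here.
Lamb1 promoter: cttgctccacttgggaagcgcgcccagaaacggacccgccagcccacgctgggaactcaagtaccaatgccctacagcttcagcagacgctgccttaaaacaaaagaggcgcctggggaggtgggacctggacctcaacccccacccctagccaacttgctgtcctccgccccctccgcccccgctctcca

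Lamc1 (ENSMUSG00000026478.14, chr1:153218922-153332786, minus strand) encodes the laminin gamma 1 chain and had 7 combined regions of each factor, reached by 0.939% of all genes for GATA4 and by 0.433% for GATA6. Its window spans 204 kb, and its density of 34.4 combined regions per Mb was reached by 5% of all genes for GATA4 and by 2.24% for GATA6. Its window had 32, 18 and 25 called regions in the GATA4 libraries and 24, 28 and 28 in the GATA6 libraries (25 ± 7 and 26.7 ± 2.31, SD, n = 3, two-sided exact permutation test, p = 0.8, adjusted p = 1). The 2 factors overlapped, and GATA4 replicates 1 and 2 were the highest and the lowest of the 6. The gene lies in a part of chromosome 1, from 150 to 170 Mb, where all libraries called many regions, 51.3 to 62.8 per Mb. The Lamc1 window held 88.4 to 157 per Mb. The whole segment had 8.25 GATA4 and 6.25 GATA6 combined regions per Mb. The part of this background in the Lamc1 counts was not tested. Upstream of Lamc1 there were 4 combined regions of each factor. The farthest, chr1:153376303-153377456, had percentiles of 99.8, 99.7 and 99.9 for GATA4 and 99.8, 99.6 and 99.5 for GATA6. The region 25362 bp upstream had 99.9, 99.7 and 99.6 for GATA4 and 99.7, 99.2 and 99.6 for GATA6. At the TSS the GATA4 libraries were uniform at 98.7, 99.2 and 99.2, and the GATA6 libraries spread over 86.2, 41.0 and 99.2. Intron 1 held the other 2 regions, of which that 11468 bp inside the gene had GATA4 percentiles of 95.1, 83.8 and 93.6.

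The remaining laminin chains of the list had fewer combined regions than Lama1, Lamb1 and Lamc1. Per length, however, Lamb2 stood beside Lama1 in called regions. The GATA4 means were 51.9 ± 10.6 per Mb at Lamb2 and 54.2 ± 14.9 at Lama1. For GATA6 they were 42.8 ± 34.7 and 46.5 ± 0 (all SD, n = 3). The Lamb2 window spans 109 kb and had 18.3 GATA4 combined regions per Mb, reached by 18.7% of all genes. Lama5 (ENSMUSG00000015647.9, chr2:180176373-180225859, minus strand), the alpha 5 chain of most adult epithelia, had 2, 6 and 4 called regions for GATA4 and 4, 2 and 4 for GATA6 (4 ± 2 and 3.33 ± 1.15, SD, n = 3, two-sided exact permutation test, p = 1). Its 1 GATA4 combined region, chr2:180273426-180274003, with percentiles of 53.3, 69.5 and 67.9, lay 47567 bp from its nearest Lama5 TSS and covered the TSS of Cables2. This region is the closest to the edge of any window on the inside, and the next GATA4 combined region outside, 50025 bp from Lama5, had a mean percentile of 85.5. Lamb2 (ENSMUSG00000052911.9, chr9:108479736-108490530, plus strand), the beta 2 chain of the kidney filter and the neuromuscular junction, had 5, 7 and 5 called regions for GATA4 and 3, 2 and 9 for GATA6 (5.67 ± 1.15 and 4.67 ± 3.79, SD, n = 3, two-sided exact permutation test, p = 0.8). GATA6 replicate 3 alone exceeded the GATA4 libraries. One GATA4 combined region lay 571 bp upstream of a Lamb2 TSS, with percentiles of 88.3, 94.8 and 82.3, and was called in GATA6 replicates 1 and 3. The other, with percentiles of 95.4, 97.1 and 90.4, covered the TSS of Qars.

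The nidogens differed from each other. Nid1 (ENSMUSG00000005397.8, chr13:13437551-13512269, plus strand) had 2, 3 and 0 called regions for GATA4 and 1, 2 and 0 for GATA6 (1.67 ± 1.53 and 1 ± 1, SD, n = 3, two-sided exact permutation test, p = 0.8). Replicate 3 of both factors had none. Only 1 of its regions was called in more than 1 library, in GATA4 replicates 1 and 2, 9059 bp from a TSS in an intron. Nid2 (ENSMUSG00000021806.4, chr14:19751265-19811787, plus strand) had 11, 8 and 13 for GATA4 and 14, 5 and 15 for GATA6 (10.7 ± 2.52 and 11.3 ± 5.51, SD, n = 3, two-sided exact permutation test, p = 0.9, adjusted p = 1). GATA6 replicate 2 was the lowest of the 6. It decided the GATA6 combined count of Nid2, which was 1 with all libraries and 7 without replicate 2. The GATA4 combined list held 4 regions at Nid2. The strongest, in intron 2, had percentiles of 98.3, 98.1 and 98.5. The one over the TSS, chr14:19749916-19751651, had 95.7, 90.6 and 98.0, and it was the single GATA6 combined region too (86.2, 94.8 and 58.6). The other 3 GATA4 regions were each called in GATA6 replicates 1 and 3 and missed in replicate 2. Chromosome 14 as a whole was rich in called regions, with 36.2 to 44.1 per Mb in the 6 libraries. The Nid2 window held 32.5 to 97.4, and the part of that background in its counts was not tested.

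Hspg2 (ENSMUSG00000028763.17, chr4:137468769-137570630, plus strand) encodes perlecan, a heparan sulphate proteoglycan. It had 7, 11 and 4 called regions for GATA4 and 3, 5 and 3 for GATA6 (7.33 ± 3.51 and 3.67 ± 1.15, SD, n = 3, two-sided exact permutation test, p = 0.2, adjusted p = 1), with GATA4 replicate 3 inside the GATA6 range. Of 3 GATA4 combined regions, the one in intron 1, 1425 bp downstream of a TSS, had percentiles of 84.2, 86.2 and 94.9 and was called in GATA6 replicate 1 alone. A second lay 18450 bp upstream of a Hspg2 TSS, nearer to 1700013G24Rik, with GATA4 percentiles of 54.8, 91.6 and 98.9, and was the 1 GATA6 combined region of the gene (92.8, 93.4 and 70.1). The third covered the TSS of Usp48. Agrn (ENSMUSG00000041936.18, chr4:156165290-156197488, minus strand), which encodes agrin, had 1, 2 and 2 called regions for GATA4 and 3, 3 and 3 for GATA6. All GATA6 libraries were above all GATA4 libraries there, as at 1.56% of the 20940 genes with any called region (two-sided exact permutation test, p = 0.1, adjusted p = 1). Agrn was the 1 gene of the 10 whose libraries did not overlap between the factors. None of the 10 had all GATA4 libraries above all GATA6 libraries, a pattern found at 5.62% of genes. No region at Agrn was present in all 3 libraries of a factor.

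Sparc (ENSMUSG00000018593.13, chr11:55394500-55423183, minus strand) had 11, 8 and 9 called regions for GATA4 and 7, 7 and 11 for GATA6 (9.33 ± 1.53 and 8.33 ± 2.31, SD, n = 3, two-sided exact permutation test, p = 0.6, adjusted p = 1). The factors overlapped. It had 7 GATA4 and 5 GATA6 combined regions, in a window of 124 kb that is shorter than those of the endodermal laminin chains. None of these lay within 1 kb of a Sparc TSS, and the nearest, in intron 2, was 1075 bp from one (GATA4 percentiles 88.7, 92.4 and 93.8). A GATA4 region over a Sparc TSS was called in replicates 1 and 3 only, and so was not in the combined list. The strongest GATA4 region, 4724 bp upstream, had percentiles of 99.8, 99.8 and 99.4 for GATA4, and 99.2, 87.6 and 96.0 for GATA6. Farther into intron 2, 8291 bp from the 5′ end of the gene, GATA4 percentiles were 98.9, 97.9 and 98.7. GATA6 percentiles there were 7.90, 96.3 and 97.0, with replicate 1 near the bottom of its list. The 2 regions farthest upstream covered the TSSs of Atox1 and G3bp1. The G3bp1 region (GATA6 percentiles 97.2, 97.7 and 88.1) ranked highest for GATA6 in the window. The region 4822 bp upstream of Sparc was just below it, both at a rounded mean of 94.3. One GATA4 region of the 7, 21613 bp upstream, met no called region in any GATA6 library, as did 9.03% of the whole GATA4 combined list.

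Across the 10 genes, the nearest TSS was that of the gene itself for 25 of 38 GATA4 and 16 of 24 GATA6 combined regions. A TSS of the gene was covered in 4 cases for each factor, at Lama1, Lamb1, Lamc1 and Nid2, and 21 GATA4 and 15 GATA6 regions lay over 10 kb from any TSS of the gene. Gene bodies held 13 GATA4 and 8 GATA6 regions. GATA4 regions at these genes had a median width of 936 bp, beside 742 bp in the whole list, and GATA6 regions had 744 bp beside 724 bp.

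The regions ranked above the average of their lists. The mean percentile of the 38 GATA4 regions was 88.5 ± 2.16 (SD over 3 libraries), beside 80.6 ± 0.925 for all GATA4 combined regions. For the 24 GATA6 regions it was 86.4 ± 2.11, beside 79.2 ± 0.613. Taken library by library, the values at the 10 genes ran from 86.4 to 90.7 for GATA4 and from 84.4 to 88.6 for GATA6, and those of the whole lists from 79.5 to 81.3 and from 78.5 to 79.7, so the 2 did not overlap. A mean percentile of 95 or more was reached by 15 of 38 GATA4 regions, or 39.5%, where 19.5% of the whole list reached it, and by 6 of 24 GATA6 regions, or 25%, where 19.1% did.

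**Figure D3:**
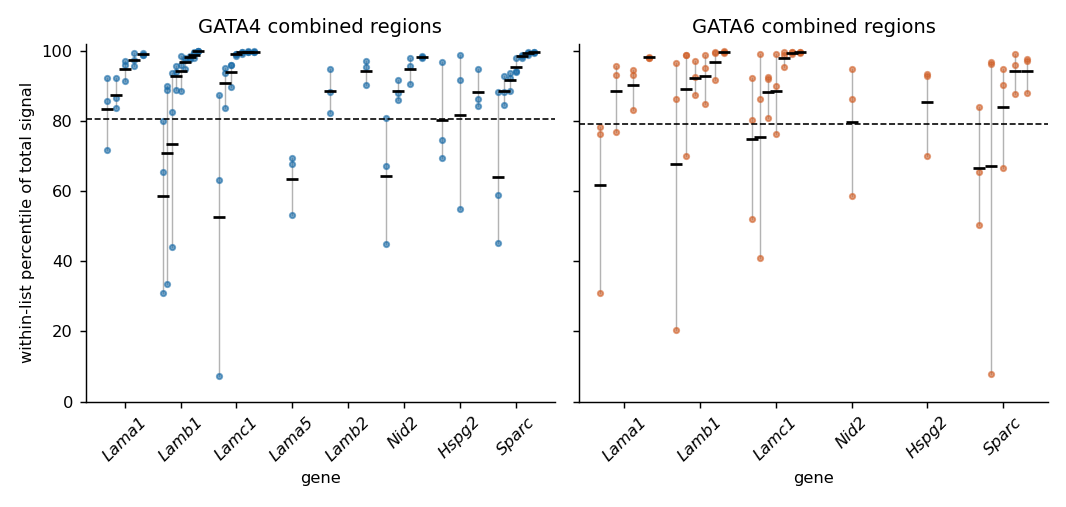
Within-list percentile of total signal (y axis) of each combined region, grouped by gene (x axis), for GATA4 on the left and GATA6 on the right. Points are the 3 libraries, joined by a grey line, black ticks their mean, and the dashed lines the mean of all combined regions of the factor, 80.6 and 79.2. The top regions of Lamb1, Lamc1 and Sparc sit tightly near 100 for GATA4, and weaker regions spread widely between libraries.

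Most of the regions at these genes were shared by the factors. Of the 38 GATA4 combined regions, 24 overlapped a GATA6 combined region (63.2%, exact binomial 95% interval 46.0 to 78.2), where 45.2% of the whole GATA4 list did. All 24 GATA6 regions overlapped a GATA4 combined region (interval 85.8 to 100), where 72.3% of the whole GATA6 list did. The intervals cover counting error only. Of the 14 GATA4 regions outside the GATA6 combined list, 10 were called in 2 GATA6 libraries, 3 in 1 and 1 in none. Over the whole GATA4 combined list, 9.03% of regions were called in no GATA6 library.

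Merging the 6 lists left 253 separate regions in the windows. Of these, 24 were called in all 6 libraries, or 9.49%, where 1.88% of merged regions over the genome were. Lamc1 had 7 of the 24, Lamb1 6, Sparc 5, Lama1 4, and Nid2 and Hspg2 1 each. Lama5, Lamb2, Nid1 and Agrn had none. Regions called in 1 library made up 62.8% of those in the windows and 83.2% over the genome. The regions shared by all 6 lay over the TSS at Lama1, Lamb1, Lamc1 and Nid2, in introns at Lamb1, Lamc1 and Sparc, and otherwise upstream, up to 45810 bp from a TSS at Sparc.

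**Figure D4:**
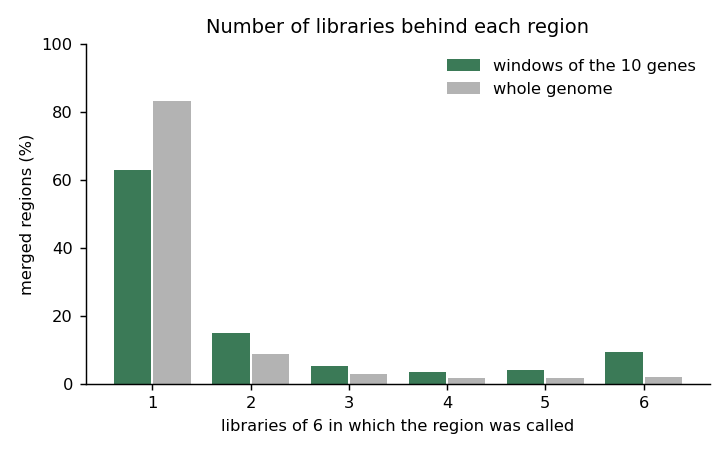
Share of merged regions (y axis, percent) by the number of libraries, out of 6, in which they were called (x axis), for the windows of the 10 genes and for the whole genome. The share called in all 6 is 9.49% in the windows and 1.88% over the genome.

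GATA motifs were sought within 100 bp of the point of maximum signal. They were found in 22 of 38 GATA4 regions at these genes (57.9%, exact binomial 95% interval 40.8 to 73.7), beside 45.9% of the whole list, and in 15 of 24 GATA6 regions (62.5%, 40.6 to 81.2), beside 36.2%. The motif split the regions by position. Of the GATA4 regions over 1 kb from any protein-coding TSS, 22 of 28 held one (78.6%, 59.0 to 91.7), beside 71.5% of such regions in the whole list. For GATA6, 15 of 18 did (83.3%, 58.6 to 96.4), beside 60.8%. Near a TSS, at most 1 kb away, none of the 10 regions for GATA4 or the 6 for GATA6 held one, which allows shares of up to 30.8% and 45.9%, beside 18.6% and 14.8% in the whole lists. At least 2 motifs stood in 13 GATA4 regions, or 34.2%, beside 23.9% of the whole list. All 13 lay over 1 kb from a TSS, where they were 46.4% of the regions, beside 41.7% in the whole list.

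**Figure D5:**
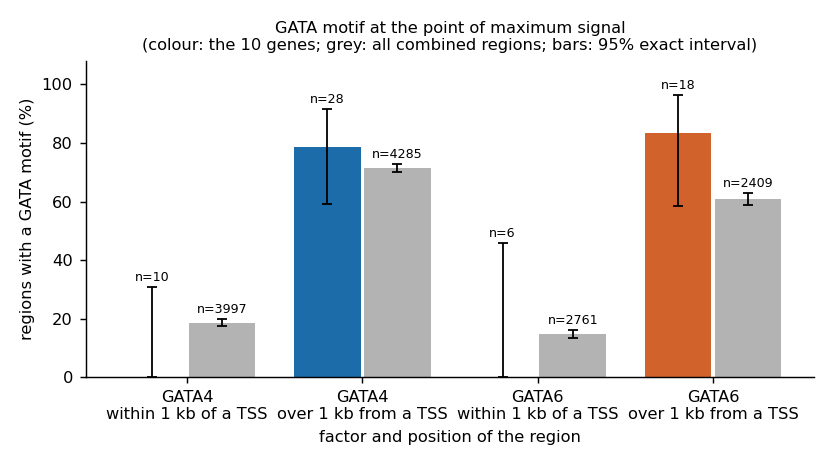
Share of combined regions with a GATA motif within 100 bp of the maximum signal (y axis, percent), for each factor and for regions near to or far from a TSS (x axis). Coloured bars are regions at the 10 genes, grey bars all combined regions, black lines exact 95% intervals, and n the number of regions. Away from a TSS the share is 78.6% for GATA4 and 83.3% for GATA6, and near a TSS it is 0 for both.

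Among 34 other genes of the basement membrane and its neighbouring matrix, 14 had a GATA4 and 12 a GATA6 combined region in the window, or shares of 41.2% and 35.3%, beside 48.2% and 38.3% of all genes. Ltbp3, which encodes a binding protein of latent TGF-beta, had the most GATA4 regions of the list, 4, with 3 for GATA6. Efemp2, the fibulin of elastic fibres, had the most GATA6 regions, 6, with 2 for GATA4. Both lie on chromosome 19, whose density of called regions is not given here. Hmcn1, on chromosome 1, had 3 for GATA4 and 4 for GATA6. Dag1, the dystroglycan receptor of laminin, had 3 for each factor.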

How the data were processed

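Reads were mapped by the authors with bowtie2 2.3.4.1 against mm10, filtered for duplicates, mapping quality under 20, mitochondrial reads and blacklisted regions, and regions were called in each library with SEACR 1.3. No IgG control entered the call as the methods text describes it. The deposited list of each library gives positions with a total and a maximum signal that the authors did not scale for depth, and the combined lists give positions only. Reads left after filtering are unknown.

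Groups came from the sample titles, genes and TSSs of all transcripts from GENCODE release M21 (GRCm38, the build of the files), and sequence from GRCm38.p6 and RefSeq promoters. Overlap meant at least 1 bp. Combined lists recomputed as merged regions present in all 3 libraries equalled those deposited. Feature and intron number are those of the region midpoint in the longest coding transcript. Numbers per library were compared by two-sided exact permutation, adjusted by Benjamini-Hochberg over all protein-coding genes with a called region. Gene and region lists were not tested.

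The 10 genes and the 34 other genes were chosen with earlier results of these data known. For each gene and factor, the combined region of highest mean percentile, the one nearest a TSS and those called in all 6 libraries were to be named, and further regions were singled out after their values were seen. Over merged regions, deviations from the factor mean correlated at 0.00102, 0.00148 and 0.00118 between libraries with the same number. Of these regions, 83.2% were called in 1 library, and such regions draw the correlations toward 0 without fixing them there. By how much was not computed, so the correlations were not used to decide whether libraries with the same number deviated together. Simulated data with planted answers were used to check the code, run with Python 3.11.15, numpy 2.4.6, scipy 1.17.1, matplotlib 3.10.9 and samtools 1.23.1. Alternatives covered windows, TSS sets, list lengths, overlap rules, ranks, motif windows, a replicate block and leaving out each library.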

Additional observations from a re-analysis of the deposited data

How the results depend on the processing

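Of 138 values under the alternatives, 27 moved beyond the limit set for their kind, 1 reversed and 110 did neither. For the differences between the factors only the direction was judged, and their size varied. The combined regions at the 10 genes, 38 for GATA4 and 24 for GATA6, became 61 and 52 when 2 of 3 libraries sufficed, 13 and 8 in gene bodies alone, and 17 and 9 within 10 kb of a TSS. With only regions whose nearest TSS was the gene's own, the GATA4 count was 25. Without 1 library of the factor the GATA4 count was 41 to 50 and the GATA6 count 30 to 40, where 40 came without GATA6 replicate 2, most of the gain being at Nid2 (7 regions in place of 1) and Lamc1 (12 in place of 7). Without Nid2 and Lamc1, which lie in stretches with many called regions, 27 GATA4 and 16 GATA6 regions remained, at 6 and 4 of the 8 other genes. The count of genes with a GATA6 region within 1 kb of a TSS fell from 4 to 2 in the upper 50% of each list.

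The excess of GATA4 over GATA6 regions per library stayed positive in number under every alternative tried, from 4.33 in gene bodies to 17.3 with windows of 100 kb, and was 5.17 without GATA4 replicate 1. As a share of the list it changed sign without GATA4 replicate 1, at -0.000805 percentage points, was 0.00185 and 0.00298 without GATA6 replicates 2 and 1, and reached 0.0203 without GATA6 replicate 3. The exact permutation p of both measures ranged from 0.1 to 1. The 1 gene whose libraries did not overlap between the factors became 0 within 10 kb and with 100 kb windows, and 1 to 3 genes without 1 library: 2 without GATA4 replicate 2 or GATA6 replicate 1, and 3 without GATA4 replicate 3, GATA6 replicate 2 or GATA6 replicate 3. With the replicate number as a replicate block, the difference of 11 regions had an exact sign-flip p of 0.5 and that of 0.00836 percentage points a p of 0.75, where 3 pairs cannot go below 0.25. The labels tie these libraries by number alone.

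The mean percentile was 85.7 for GATA4 by signal per base pair (81.6 in the whole list) and 88.7 for GATA6 by maximum signal (83.9 in the whole list). Without 1 library it was 82.7 to 85.9 for GATA4, beside 73.5 to 74.5, and 77.3 to 83.9 for GATA6, beside 71.7 to 72.3. These sets hold more and weaker regions. The share of GATA4 regions with a motif was 36.8% for AGATAA alone (25.9% in the whole list), 76.3% within 250 bp (60.8%) and 84.2% anywhere in the region (70.8%). Signal unscaled for depth, an unknown number of reads and a call without a control limit all of these values, and 3 libraries per factor cannot give a p under 0.1.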
